A study of Rattus norvegicus with 6 samples.

Results

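The genes described here are the annotated long noncoding RNAs (lncRNAs) of rat liver that reached a mean of 1 FPKM (mapped fragments corrected for transcript length and for the size of the library). They were chosen by their measured level: a lncRNA was taken if its class was lincRNA (transcribed between genes), antisense or sense intronic and its mean over 6 rats was at least 1 FPKM. This gave 101 of the 1028 annotated lncRNAs, in a table of 19616 genes. The mean of all rats selected them and their difference between groups did not, although a lncRNA present in 1 group can reach the mean through that group. Both group means were at least 1 FPKM for 77 of the 101, while 9 reached it in the control group alone and 15 in the fibrosis group alone.

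The study compared fibrotic with control liver, and total RNA freed of ribosomal RNA was sequenced from the livers of 6 male SD rats, with 1 library per rat. Rats of the FL group (FL2, FL5 and FL12) had CCl4 (carbon tetrachloride, a solvent toxic to hepatocytes) in olive oil injected into the peritoneum for 5 weeks, with 2 injections of 2 mL/kg each week. Rats of the CL group (CL5, CL6 and CL7) received an equal volume of olive oil. The labels number the rats within each group, with the number 5 in both, and the methods divide separate animals into the groups. The p-values thus rest on the spread between these 3 and 3 rats, joined to a prior variance that limma, described below, takes from all genes tested. Values per rat are given below in the order CL5, CL6, CL7 and FL2, FL5, FL12.

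LncRNAs are transcripts without a long open reading frame, many of them spliced and polyadenylated like mRNAs. Some act in the nucleus on chromatin or on genes beside them, some in the cytoplasm on mRNAs or proteins, and others carry small nucleolar RNAs (snoRNAs) in their introns. For most annotated rat lncRNAs no function is known, and 97 of the 101 below carry no description in the annotation used here.

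The tissue was checked by hepatocyte markers, and all 9 (Alb, Apoa1, Ttr, Serpina1, Tf, Apoc3, Fgb, Cps1 and Hnf4a) were measured above 100 FPKM in every rat. Their sum was 55802, 52904 and 54365 FPKM in the CL rats and 46999, 46193 and 44363 FPKM in the FL rats, with Alb, which encodes albumin, the most abundant, and 0 of the 9 passed the limma test described below in either direction (2 at an unadjusted p under 0.05). Alb measured 33392, 31431 and 31992 FPKM in the CL rats and 24149, 25052 and 25209 FPKM in the FL rats, lower in all FL rats, with a log2 difference of -0.38 (standard error 0.98, adjusted p = 0.804 from limma). The groups did not overlap for 6 of the 9, of which Alb, Ttr, Apoc3 and Hnf4a were lower (4 of 9, where 4.78% of all genes tested were) and Tf and Apoa1 higher (2 of 9, where 35.7% were) in every FL rat. Limma's prior SD follows the mean and was 1.69 for Alb, against a median of 0.232 over all genes tested and an SD within groups of 0.040 for Alb itself, so the standard error of Alb comes from the prior far more than from these rats, and not passing does not show that a marker was unchanged. With limma without trend, Apoa1 rose (adjusted p = 0.0397) and Apoc3 fell (0.0339), while Alb missed 0.05 (0.0789, with a standard error of 0.12). Apoa1 and Apoc3 also passed with a robust prior (0.0424 and 0.0325), with only genes of at least 1 FPKM tested (0.0478 and 0.0418) and without FL2 (0.0218 and 0.0413). Hnf4a missed 0.05 without trend too (0.270 from limma), and its prior SD of 0.196, below that median, was still well above its own SD within groups (0.051). Without Alb, the hepatocyte sums overlapped between the groups.

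In FPKM without further scaling, each list of markers of other liver cells summed to more in each FL rat than in each CL rat, but for the cholangiocyte, lymphocyte and cycling cell lists the groups overlapped once the most abundant gene was left out. Counts of markers that rose are at an adjusted p under 0.05 from limma, which 16.9% of all genes tested reached as higher in FL. Of the stellate cell and myofibroblast list, 6 of 9 genes tested rose and 0 fell, and the list summed to 69.8, 75.9 and 69.2 FPKM in the CL rats and 191, 507 and 472 FPKM in the FL rats, with Col3a1, a fibrillar collagen, the most abundant. FL2 was thus the lowest of the FL rats on that list. Macrophage markers (5 of 10 rose, C1qc most abundant) summed to 200, 189 and 194 FPKM in the CL rats and 401, 392 and 238 FPKM in the FL rats. Here FL12 was the lowest of the FL rats. Markers of cycling cells (3 of 8 rose, Pcna most abundant) summed to 6.80, 8.18 and 6.92 FPKM in the CL rats and 10.2, 28.6 and 26.5 FPKM in the FL rats, again with FL2 the lowest of its group, and without Pcna FL2 (4.83 FPKM) lay below CL6 (5.51 FPKM). Cholangiocyte markers (1 of 6 rose, Spp1, also the most abundant) summed to 5.77, 10.6 and 6.25 FPKM in the CL rats and 12.6, 68.5 and 42.0 FPKM in the FL rats. Spp1 carried this difference, since without it the sums were 5.40, 7.82 and 5.51 FPKM in the CL rats and 5.26, 7.87 and 10.8 FPKM in the FL rats. Spp1 missed 0.05 without CL7 (adjusted p = 0.0537 from limma), FL5 (0.0537) and FL12 (0.0516). Lymphocyte markers (1 of 8 rose, Cd4, also the most abundant) summed to 12.3, 10.3 and 11.2 FPKM in the CL rats and 23.3, 30.6 and 24.0 FPKM in the FL rats, most of it Cd4. Without Cd4 they were 2.36, 1.99 and 2.93 FPKM in the CL rats and 5.12, 6.76 and 2.68 FPKM in the FL rats, so FL12 lay below CL7. Endothelial markers (2 of 7 rose, Stab2 and Vwf, with Kdr most abundant) summed to 78.6, 76.5 and 68.5 FPKM in the CL rats and 94.0, 79.7 and 88.2 FPKM in the FL rats. No gene of these lists fell, and 0 were listed at 0 in all 6 rats. Over the 14 alternative settings, 5 to 7 stellate cell and myofibroblast markers, 3 to 8 macrophage markers, 0 to 8 markers of cycling cells, 0 to 1 cholangiocyte markers, 1 to 2 lymphocyte markers and 0 to 2 endothelial markers rose. Over all genes tested, the share that rose was 8.65% without CL5, 8.80% without CL6, 6.08% without CL7, 21.5% without FL2, 6.04% without FL5 and 8.64% without FL12. The number of macrophage markers was 3 without each of CL6, CL7, FL2 and FL5 and 8 without FL12. Of the markers of cycling cells, 1 rose without CL5 or CL6, 0 without CL7, FL5 or FL12, and 8 without FL2. With median scaling, where 8.75% of all genes tested rose, 1 marker of cycling cells and 3 macrophage markers did. These numbers were 0 and 3 with quantile normalization (5.26% of all genes tested) and 2 and 3 with limma without trend (13.8%). Of the endothelial markers, Vwf missed 0.05 without every rat but FL2 (adjusted p = 0.0674 to 0.0871 from limma) and Stab2 without CL7 (0.0576). Vwf also missed it with median scaling (adjusted p = 0.0574 from limma), quantile normalization (0.0989) and limma without trend (0.0504). In bulk liver, fewer cells of a type and less RNA per cell cannot be told apart, and the part of the cell makeup in the lncRNA differences below was not tested.

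All 101 were lincRNAs, taken from 1013 lincRNAs in the table. Of 10 antisense lncRNAs, 0 reached 1 FPKM, and the highest was Rn60_10_0706.2 on chromosome 10 with a mean of 0.547 FPKM. Of 5 sense intronic lncRNAs, 0 reached it either, the highest being Rn60_X_0746.4 on chromosome X, also with a mean of 0.547 FPKM. The 101 made up 9.82% of the annotated lncRNAs, whereas 59.9% of the protein-coding genes had a mean of at least 1 FPKM. For its own lncRNA levels the paper left antisense reads out, but for the gene table used here no strand setting is stated, so reads of a gene overlapping a lncRNA may be counted in it. Identifiers are given as in the table, where 80 of the 101 carried a name starting with AABR, 8 one starting with AC, 9 an Rn60 name and 4 a LOC number, and 97 had no description.

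Many of the levels were close to the limit. Their median was 2.09 FPKM (quartiles 1.52 and 3.64), against a median of 5.26 FPKM for the 10160 protein-coding genes of at least 1 FPKM. Between 1 and 2 FPKM lay 48 lncRNAs, between 2 and 5 FPKM 36, between 5 and 10 FPKM 10, and 7 stood at 10 FPKM or more. At least 1 FPKM in every rat was reached by 61. The number at or above 1 FPKM was 81, 84 and 81 in the CL rats and 87, 92 and 85 in the FL rats, and 1 lncRNA, AABR07021492.1, was listed at 0 in some rats (CL5 and CL7).

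**Figure D1:**
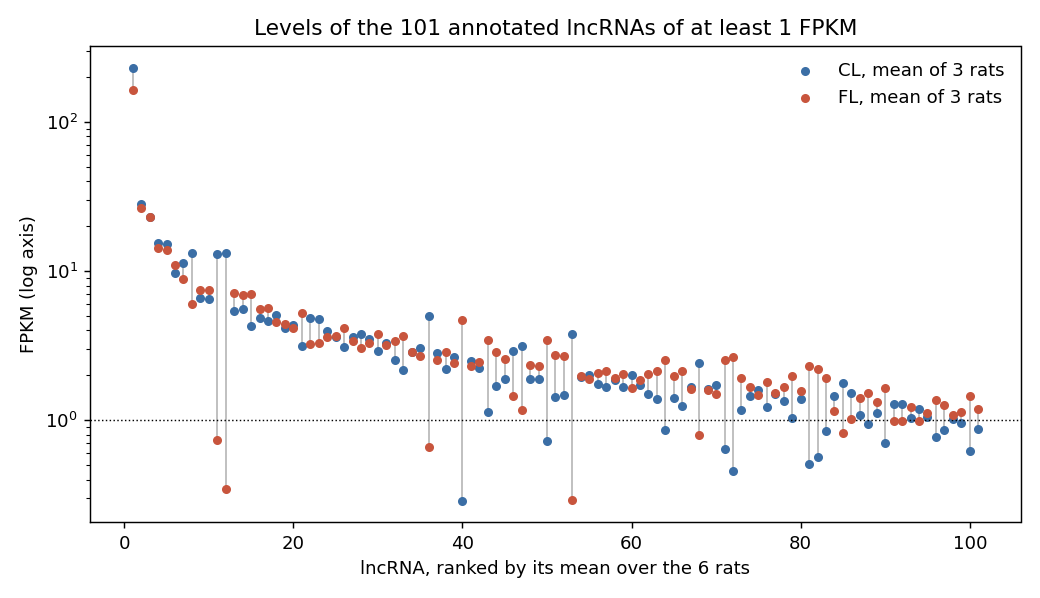
Mean FPKM on a log axis of the 101 lncRNAs ranked by their mean over 6 rats, with 1 point for the mean of 3 CL rats and 1 for the mean of 3 FL rats joined by a grey line, and the 1 FPKM limit dotted. AABR07024870.1, with a mean of 197 FPKM, stood far above the others, and the long lines mark the lncRNAs whose group means lay far apart.

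The paper gives a number of clean reads but none for each rat, so the absolute depth of a library is unknown. The 114 genes of U6, a spliceosomal RNA, have similar lengths, and the size of the steps between their lowest values gave a relative depth of 1, 0.688 and 0.880 in the CL rats and 0.688, 0.769 and 0.688 in the FL rats. Of those low values, 69.2% in CL5 and 78.8% to 82.4% in the other rats were whole multiples of the step (within 0.1 of a step). CL5 thus had the highest relative depth, but from the step with the poorest fit. No counting error can be attached to an FPKM value, and low values of short transcripts rest on few reads.

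AABR07024870.1 (ENSRNOG00000054077, chromosome 16) was the most abundant lncRNA by far, with a mean of 197 FPKM, 7.17 times that of the next, and stood above 99.1% of all genes in the table. It measured 232, 228 and 233 FPKM in the CL rats and 173, 163 and 152 FPKM in the FL rats. The CL rats lay close together and every FL rat lay below them. The means were 231 ± 2.58 FPKM in CL and 163 ± 10.2 FPKM in FL (SD, n = 3 rats each), and the log2 difference was -0.51 (standard error 0.13, adjusted p = 0.035 from limma), a decrease of under 2-fold. For AABR07024870.1, limma's adjusted p ranged over 0.0202 to 0.111 in the 14 alternative settings and missed 0.05 with no filter on low values (0.0529), with quantile normalization (0.0556), without CL5 (0.0878), without CL6 (0.0989), without CL7 (0.111), without FL12 (0.0895) and without FL5 (0.0881).

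AABR07004549.1 (ENSRNOG00000059330, chromosome 1) followed with 34.7, 24.6 and 25.6 FPKM in the CL rats and 34.6, 10.2 and 35.0 FPKM in the FL rats. FL5 stood apart from FL2 and FL12, which were as high as the highest CL rat, and the groups overlapped. AABR07019088.1 (ENSRNOG00000057291, chromosome 15) measured 21.5, 22.6 and 25.2 FPKM in the CL rats and 20.7, 22.8 and 25.8 FPKM in the FL rats. The rats of both groups covered the same range, and the log2 difference was -0.0015 (standard error 0.12, adjusted p = 0.994 from limma). AABR07060341.2 (ENSRNOG00000060317, chromosome 4) measured 14.7, 17.8 and 13.7 FPKM in the CL rats and 9.94, 18.9 and 14.2 FPKM in the FL rats, with FL rats both below and above all CL rats. AABR07004530.1 (ENSRNOG00000056445, chromosome 1) measured 26.6, 8.82 and 10.3 FPKM in the CL rats and 7.23, 15.4 and 19.1 FPKM in the FL rats. CL5 was the highest of the 6 and FL2 the lowest, and the groups overlapped. AABR07017237.1 (ENSRNOG00000053868, chromosome 15) measured 10.1, 9.12 and 9.94 FPKM in the CL rats and 10.4, 12.3 and 10.1 FPKM in the FL rats. Each FL rat was above each CL rat by a narrow margin, with a log2 difference of 0.17 (standard error 0.12, adjusted p = 0.352 from limma), which did not pass. AABR07058498.1 (ENSRNOG00000055973, chromosome 7) measured 13.5, 10.9 and 9.53 FPKM in the CL rats and 6.74, 6.27 and 13.6 FPKM in the FL rats, with FL12 above all CL rats and FL2 and FL5 below them. LOC102550026 (ENSRNOG00000058323, chromosome 5) measured 6.33, 5.66 and 7.84 FPKM in the CL rats and 7.03, 7.25 and 8.19 FPKM in the FL rats. AABR07060341.3 (ENSRNOG00000061613, chromosome 4) measured 7.70, 6.23 and 5.59 FPKM in the CL rats and 7.20, 8.44 and 6.87 FPKM in the FL rats. In both of these the groups overlapped. None of these 8 passed limma's test, with adjusted p between 0.327 for AABR07058498.1 and 0.994 for AABR07019088.1. Without FL12, AABR07058498.1 passed with a log2 difference of -0.77 (adjusted p = 0.0415 from limma, in a range of 0.0415 to 0.666 over the 14 alternative settings). The remaining 1 of the 10 highest, AABR07054126.1, is described with the decreases below.

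The 101 lncRNAs summed to 567, 586 and 580 FPKM in the CL rats and 484, 510 and 513 FPKM in the FL rats. All FL sums were below all CL sums. Without AABR07024870.1, the sums were 335, 358 and 347 FPKM in the CL rats and 312, 347 and 361 FPKM in the FL rats, and the groups overlapped. AABR07024870.1 alone held 40.9%, 38.9% and 40.2% of the sum in the CL rats and 35.7%, 31.9% and 29.6% in the FL rats. As a share of the FPKM of all genes, the 101 made up 0.183%, 0.172% and 0.184% in the CL rats and 0.157%, 0.187% and 0.189% in the FL rats, again overlapping. FPKM of all genes summed to less in FL5 (272350) and FL12 (272110) than in the other 4 rats (309226 to 340467).

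The lncRNAs lay on 21 chromosomes. Chromosome 1 held 13 of them (12.9%), close to its 12% of all annotated lncRNAs and its 12.5% of the protein-coding genes of at least 1 FPKM. Chromosome 4 held 8 of its 50 lncRNAs in the table (16%). Chromosomes 3, 5, 7, 15 and 20 held 6 each, and chromosome 17 held 1 of its 39, the lowest share (2.56%). Summed mean FPKM was highest on chromosome 16 (204 FPKM over 5 lncRNAs), nearly all of it from AABR07024870.1, then on chromosome 1 (71.4 FPKM), chromosome 15 (43.7 FPKM) and chromosome 4 (37.8 FPKM). Start and end positions were not used here.

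Some lncRNAs carry the name of the same contig, a stretch of assembled sequence. On 3 contigs 2 of the 101 shared the name, and 13 contigs held 1 or more of them beside another gene of the table. These were singled out after their values were seen. AABR07060341.2 and AABR07060341.3, both on chromosome 4, are among the 10 highest, and AABR07060341.1 of that contig had a mean of 0.753 FPKM. AABR07058985.1 (ENSRNOG00000053300, chromosome 4) measured 3.27, 3.77 and 3.77 FPKM in the CL rats and 3.25, 3.82 and 3.97 FPKM in the FL rats. AABR07058985.2 (ENSRNOG00000059271, chromosome 4) measured 2.17, 1.74 and 1.74 FPKM in the CL rats and 2.59, 1.83 and 2.62 FPKM in the FL rats, with overlap between the groups in both. Rn60_20_0046.4 (ENSRNOG00000057666, chromosome 20) measured 3.44, 3.53 and 2.87 FPKM in the CL rats and 3.20, 4.22 and 2.13 FPKM in the FL rats. Rn60_20_0046.5 (ENSRNOG00000059825, chromosome 20) measured 1.15, 1.45 and 1.55 FPKM in the CL rats and 0.83, 2.22 and 1.66 FPKM in the FL rats, the 2 being alike in that FL5 was highest. The groups overlapped for each of them.

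Near the limit, the 5 lowest lncRNAs included were AABR07032289.1 (mean 1.07 FPKM, chromosome 18), AABR07065406.2 (1.06 FPKM, chromosome 6), AABR07001634.1 (1.04 FPKM, chromosome 1), AABR07025387.1 (1.04 FPKM, chromosome 16) and AABR07012047.1 (1.04 FPKM, chromosome 2). The 5 highest left out were AC115369.1 (0.992 FPKM, chromosome 13), AABR07026037.1 (0.988 FPKM, chromosome 16), Rn60_X_0224.3 (0.988 FPKM, chromosome X), AABR07030939.1 (0.973 FPKM, chromosome 10) and AABR07039233.1 (0.972 FPKM, chromosome X). The limit ran through a continuous range of levels. AABR07032289.1 came in through a single rat, with 3.02 FPKM in FL2 against 0.60 FPKM in FL5 and 0.19 FPKM in FL12.

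Groups were compared on log2(FPKM + 0.1) with limma over the 14864 genes whose mean reached 0.1 FPKM, which included all 101 lncRNAs, and p-values were adjusted over all genes tested. A fold change on this scale understates the change of genes with low FPKM. Of the 101, 11 rose at an adjusted p under 0.05 from limma (10.9%), where 16.9% of all genes tested did, and 7 fell (6.93%), where 1.94% of all genes tested did. With a fold change of at least 2 besides, 5 rose (4.95%, against 9.29% of all genes tested) and 6 fell (5.94%, against 0.935%). All 3 FL rats lay above all 3 CL rats for 21 of the 101 (20.8%, against 35.7% of all genes tested) and below them for 9 (8.91%, against 4.78%). At an unadjusted p under 0.05 from limma, 33 of the 101 and 5276 of all genes tested differed.

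The median log2 difference of the 101 was 0.12, against 0.29 over all genes tested. Over all genes tested the median moved to 0.08 with median scaling and to -0.04 with quantile normalization, and that of the 101 to -0.09 and -0.28. The difference was above 0 for 60 of the 101 (59.4%, against 77.9% of all genes tested) and above the median of all genes tested for 38. With median scaling these numbers were 46 and 37, and with quantile normalization 30 and 34, so the sign of a small difference depended on the scaling. All 18 lncRNAs that passed kept their direction in each of the 14 alternative settings, but between 5 and 18 of them still passed. The number was 5 without FL5 (1066 of all genes tested passed), 6 without CL7 (1025), 8 without CL5 (1438) and 9 without CL6 (1426). It was 10 without FL12 (1458), 16 without FL2 (3527), 7 with quantile normalization (1315) and 13 with median scaling (1834). The 2-fold changes numbered 5 up and 6 down as given (1381 and 139 of all genes tested), 3 up and 6 down with median scaling (826 and 181), and 1 up and 7 down with quantile normalization (456 and 228). Their number also rested on single rats: 2 rose without CL5, 3 without CL7 and 2 without FL5, and 3 fell without CL6, 2 without CL7, 3 without FL5 and 3 without FL12. Of all genes tested, 921, 717 and 682 rose by 2-fold without CL5, CL7 and FL5, and 80, 80, 125 and 103 fell without CL6, CL7, FL5 and FL12. Over all genes tested the number past an adjusted p of 0.05 from limma likewise moved between 1025 without CL7 and 3527 without FL2. Of the 77 lncRNAs with at least 1 FPKM in both groups, 1 rose (1.30%) and 2 fell (2.60%) by 2-fold or more at an adjusted p under 0.05 from limma. A large change can itself take a group mean below 1 FPKM and so remove a lncRNA from these 77. The shares of all genes tested (9.29% and 0.935%) were not filtered in this way, so the 2 kinds of share cannot be compared.

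**Figure D2:**
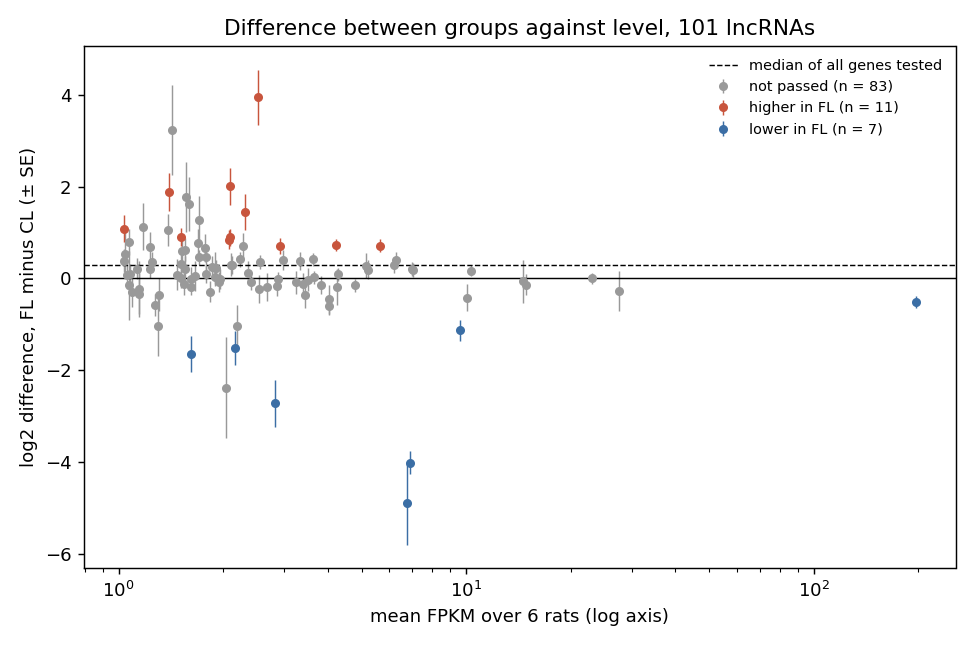
Log2 difference of FL from CL on log2(FPKM + 0.1), with limma's standard error as bars, against mean FPKM on a log axis for the 101 lncRNAs, 11 of which passed an adjusted p under 0.05 as higher in FL and 7 as lower. The dashed line is the median of all genes tested (0.29), and the differences and their errors spread widely at the low levels.

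Among the 6 lncRNAs that fell by 2-fold or more, 4 had an FL mean below 1 FPKM and so were included through the CL group: AABR07004572.1, AABR07069728.1, AABR07072511.1 and AABR07056638.1. AABR07004572.1 (ENSRNOG00000054930, chromosome 1) measured 10.9, 15.6 and 12.7 FPKM in the CL rats and 1.04, 0.66 and 0.50 FPKM in the FL rats. Every FL rat was near or under 1 FPKM and every CL rat above 10 FPKM, so the groups lay far apart. AABR07004572.1 was 17.8-fold lower in FL by group means, a log2 difference of -4.02 (standard error 0.25, adjusted p = 3.81e-04 from limma). Limma's adjusted p for AABR07004572.1 stayed under 0.05 in all 14 alternative settings, at 2.50e-04 to 0.00696. AABR07069728.1 (ENSRNOG00000058251, chromosome 8) measured 2.61, 18.8 and 18.1 FPKM in the CL rats and 0.79, 0.23 and 0.02 FPKM in the FL rats. CL5 was far below CL6 and CL7, yet still above all FL rats, and FL12 was close to 0. AABR07069728.1 was 38-fold lower in FL by group means, a log2 difference of -4.90 (standard error 0.90, adjusted p = 0.0112 from limma). Without FL2 it was 105-fold lower by group means, and with a pseudocount of 1 its log2 difference was -3.08. For AABR07069728.1, limma's adjusted p ranged over 0.00885 to 0.0535 in the 14 alternative settings and missed 0.05 without CL7 (0.0525) and without FL5 (0.0535). AABR07072511.1 (ENSRNOG00000054453, chromosome 16) measured 3.76, 8.65 and 2.57 FPKM in the CL rats and 0.47, 1.17 and 0.34 FPKM in the FL rats. CL6 was the highest rat and FL5 the highest of its group, without overlap. AABR07072511.1 was 7.57-fold lower in FL by group means, a log2 difference of -2.72 (standard error 0.51, adjusted p = 0.0121 from limma). Without CL6 it was 4.8-fold lower by group means, and without FL5 it was 12.3-fold lower by group means, and with a pseudocount of 1 its log2 difference was -1.75. Limma's adjusted p for AABR07072511.1 stayed under 0.05 in all 14 alternative settings, at 0.00962 to 0.0484.

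AABR07054126.1 (ENSRNOG00000054946, chromosome 3) measured 9.93, 15.4 and 14.2 FPKM in the CL rats and 7.02, 6.54 and 4.37 FPKM in the FL rats. CL5 was the lowest CL rat and still above all 3 FL rats. AABR07054126.1 was 2.2-fold lower in FL by group means, a log2 difference of -1.13 (standard error 0.23, adjusted p = 0.0146 from limma). Without FL12 its log2 difference was -0.92 (under 2-fold). For AABR07054126.1, limma's adjusted p ranged over 0.0118 to 0.0642 in the 14 alternative settings and missed 0.05 without CL6 (0.0541), without CL7 (0.0642) and without FL5 (0.0505). AABR07056638.1 (ENSRNOG00000057175, chromosome 7) measured 2.16, 2.57 and 2.54 FPKM in the CL rats and 0.62, 1.41 and 0.37 FPKM in the FL rats. FL5 came closest to the CL rats, which lay near each other. AABR07056638.1 was 3.03-fold lower in FL by group means, a log2 difference of -1.65 (standard error 0.39, adjusted p = 0.0257 from limma). Without FL5 it was 4.9-fold lower by group means, and with a pseudocount of 1 its log2 difference was -0.97 (under 2-fold). For AABR07056638.1, limma's adjusted p ranged over 0.016 to 0.0944 in the 14 alternative settings and missed 0.05 without CL5 (0.0676), without CL6 (0.0798), without CL7 (0.0944), without FL12 (0.0617) and without FL2 (0.0521). AABR07068044.2 (ENSRNOG00000060393, chromosome 9) measured 3.24, 3.15 and 3.07 FPKM in the CL rats and 2.03, 0.57 and 0.93 FPKM in the FL rats. The CL rats were nearly equal, and FL2 was well above FL5 and FL12 but below all CL rats. AABR07068044.2 was 2.68-fold lower in FL by group means, a log2 difference of -1.52 (standard error 0.38, adjusted p = 0.0304 from limma). Without FL2 it was 4.2-fold lower by group means, and with a pseudocount of 1 its log2 difference was -0.99 (under 2-fold). For AABR07068044.2, limma's adjusted p ranged over 0.00389 to 0.0975 in the 14 alternative settings and missed 0.05 with limma without trend (0.0564), with no filter on low values (0.0529), without CL5 (0.0878), without CL6 (0.0847), without CL7 (0.0975), without FL12 (0.0969) and without FL5 (0.0792).

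Of the 5 lncRNAs that rose by 2-fold or more, 4 had a CL mean below 1 FPKM and were included through the FL group: AABR07042654.1, AABR07047256.1, AABR07025023.1 and AABR07025387.1. AABR07042654.1 (ENSRNOG00000057797, chromosome 19) measured 0.10, 0.71 and 0.06 FPKM in the CL rats and 3.37, 3.56 and 7.28 FPKM in the FL rats. CL5 and CL7 were close to 0 and CL6 was the highest CL rat, while FL12 was well above FL2 and FL5. AABR07042654.1 was 16.3-fold higher in FL by group means, a log2 difference of 3.94 (standard error 0.60, adjusted p = 0.00651 from limma). Without CL6 it was 59.2-fold higher by group means, and with a pseudocount of 1 its log2 difference was 2.12. Limma's adjusted p for AABR07042654.1 stayed under 0.05 in all 14 alternative settings, at 0.00515 to 0.0333. AABR07047256.1 (ENSRNOG00000059459, chromosome 5) measured 0.87, 0.48 and 0.82 FPKM in the CL rats and 1.66, 3.36 and 5.36 FPKM in the FL rats. All FL rats were above all CL rats, with FL2 the lowest and FL12 the highest of the 3. AABR07047256.1 was 4.78-fold higher in FL by group means, a log2 difference of 2.0 (standard error 0.41, adjusted p = 0.0155 from limma). With a pseudocount of 1 its log2 difference was 1.29. For AABR07047256.1, limma's adjusted p ranged over 0.00527 to 0.0698 in the 14 alternative settings and missed 0.05 with quantile normalization (0.0557), without CL6 (0.0548), without CL7 (0.0531) and without FL5 (0.0698). AABR07025023.1 (ENSRNOG00000055076, chromosome 16) measured 0.51, 0.26 and 0.94 FPKM in the CL rats and 2.26, 2.88 and 1.52 FPKM in the FL rats. FL12 was the lowest FL rat and still above CL7, the highest CL rat. AABR07025023.1 was 3.89-fold higher in FL by group means, a log2 difference of 1.88 (standard error 0.40, adjusted p = 0.0188 from limma). With a pseudocount of 1 its log2 difference was 1.04. For AABR07025023.1, limma's adjusted p ranged over 0.0173 to 0.095 in the 14 alternative settings and missed 0.05 with quantile normalization (0.095), without CL5 (0.0594) and without FL5 (0.0815).

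AC099449.1 (ENSRNOG00000056268, chromosome 1) measured 1.61, 0.92 and 0.90 FPKM in the CL rats and 1.68, 4.67 and 4.05 FPKM in the FL rats. FL2 was barely above CL5, and FL5 and FL12 were high. AC099449.1 was 3.03-fold higher in FL by group means, a log2 difference of 1.45 (standard error 0.39, adjusted p = 0.0394 from limma). For AC099449.1, limma's adjusted p ranged over 0.00741 to 0.138 in the 14 alternative settings and missed 0.05 with limma without trend (0.0699), with median scaling (0.0735), with no filter on low values (0.0654), with quantile normalization (0.127), without CL5 (0.0532), without CL6 (0.113), without CL7 (0.135), without FL12 (0.129) and without FL5 (0.138). AABR07025387.1 (ENSRNOG00000052518, chromosome 16) measured 0.50, 0.54 and 0.84 FPKM in the CL rats and 1.41, 1.89 and 1.04 FPKM in the FL rats. The groups did not overlap, although CL7 and FL12 lay close to each other. AABR07025387.1 was 2.31-fold higher in FL by group means, a log2 difference of 1.08 (standard error 0.29, adjusted p = 0.0378 from limma). With a pseudocount of 1 its log2 difference was 0.58 (under 2-fold), and with quantile normalization its log2 difference was 0.53 (under 2-fold). It was also under 2-fold with median scaling (0.88), without CL5 (0.96) and without FL5 (0.88). For AABR07025387.1, limma's adjusted p ranged over 0.0384 to 0.304 in the 14 alternative settings and missed 0.05 with median scaling (0.099), with no filter on low values (0.0662), with quantile normalization (0.304), without CL5 (0.111), without CL6 (0.106), without CL7 (0.0576), without FL2 (0.0603) and without FL5 (0.126).

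**Figure D3:**
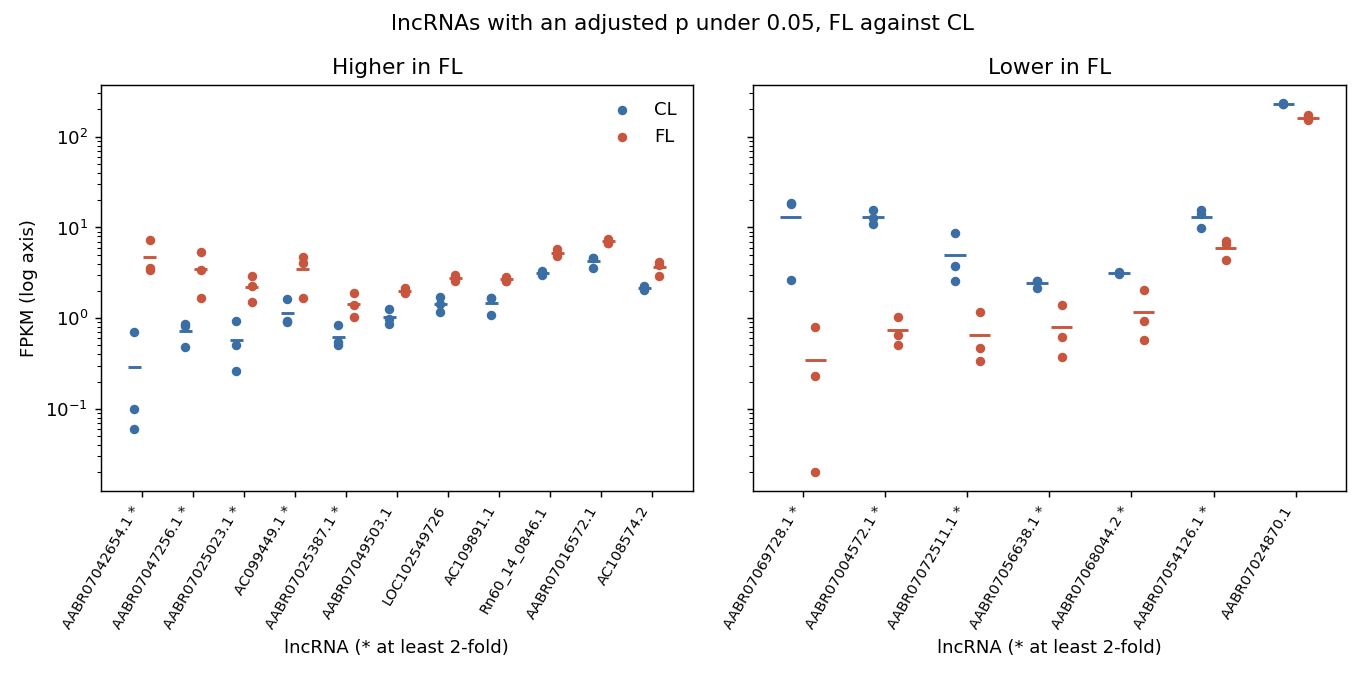
FPKM on a log axis in each rat for the 11 lncRNAs that rose and the 7 that fell at an adjusted p under 0.05 from limma, with points for single rats and bars for the means of 3 rats, and an asterisk for a change of at least 2-fold. In none of the 18 did the groups overlap, and CL5 in AABR07069728.1 and FL12 in the same lncRNA show how far single rats could lie from their group.

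The other 6 increases were smaller than 2-fold, and each of these lncRNAs had at least 1 FPKM in both groups. Rn60_14_0846.1 (ENSRNOG00000051135, chromosome 14) measured 3.00, 3.31 and 3.16 FPKM in the CL rats and 5.21, 4.85 and 5.74 FPKM in the FL rats. Both groups were tight and lay well apart. Rn60_14_0846.1 rose by a log2 difference of 0.72 (standard error 0.13, adjusted p = 0.0111 from limma). AABR07016572.1 (ENSRNOG00000061005, chromosome 14) measured 3.56, 4.63 and 4.59 FPKM in the CL rats and 7.52, 6.73 and 6.77 FPKM in the FL rats. CL5 was the lowest rat and FL2 the highest. AABR07016572.1 rose by a log2 difference of 0.71 (standard error 0.14, adjusted p = 0.0153 from limma). LOC102549726 (ENSRNOG00000054031, chromosome 20) measured 1.17, 1.72 and 1.42 FPKM in the CL rats and 2.55, 2.97 and 2.70 FPKM in the FL rats. The lowest FL rat was clearly above the highest CL rat. LOC102549726 rose by a log2 difference of 0.90 (standard error 0.19, adjusted p = 0.0162 from limma). AABR07049503.1 (ENSRNOG00000059476, chromosome 5) measured 0.87, 1.25 and 0.97 FPKM in the CL rats and 1.91, 1.92 and 2.15 FPKM in the FL rats. FL2 and FL5 were nearly equal, and CL6 was the highest CL rat. AABR07049503.1 rose by a log2 difference of 0.90 (standard error 0.19, adjusted p = 0.0192 from limma). AC109891.1 (ENSRNOG00000061821, chromosome 7) measured 1.09, 1.67 and 1.67 FPKM in the CL rats and 2.87, 2.60 and 2.60 FPKM in the FL rats. CL5 was the lowest rat, and the FL rats lay close together. AC109891.1 rose by a log2 difference of 0.85 (standard error 0.20, adjusted p = 0.0266 from limma). AC108574.2 (ENSRNOG00000057903, chromosome 11) measured 2.21, 2.07 and 2.24 FPKM in the CL rats and 2.92, 4.17 and 3.85 FPKM in the FL rats. The CL rats were nearly equal and FL2 was the lowest FL rat, above all of them. AC108574.2 rose by a log2 difference of 0.71 (standard error 0.17, adjusted p = 0.0278 from limma). Relative to the median of all genes tested, these 6 log2 differences were between 0.42 for AC108574.2 and 0.61 for AABR07049503.1. With quantile normalization all 6 missed 0.05, with log2 differences of 0.32 to 0.45, and with a pseudocount of 1 that of AABR07049503.1 was 0.56. Without CL6, 2 of the 6 reached 2-fold, LOC102549726 with a log2 difference of 1.03 (adjusted p = 0.0293 from limma) and AABR07049503.1 with 1.04 (0.0321). For Rn60_14_0846.1, limma's adjusted p ranged over 0.00746 to 0.1 in the 14 alternative settings and missed 0.05 with quantile normalization (0.1). For AABR07016572.1, limma's adjusted p ranged over 0.0113 to 0.128 in the 14 alternative settings and missed 0.05 with median scaling (0.0765), with quantile normalization (0.128) and without FL5 (0.0546). For LOC102549726, limma's adjusted p ranged over 0.0132 to 0.115 in the 14 alternative settings and missed 0.05 with quantile normalization (0.115), without CL5 (0.0524), without CL7 (0.0633), without FL12 (0.0516) and without FL5 (0.0692). For AABR07049503.1, limma's adjusted p ranged over 0.0192 to 0.172 in the 14 alternative settings and missed 0.05 with quantile normalization (0.172), without CL5 (0.0639), without CL7 (0.0757), without FL12 (0.0643) and without FL5 (0.0633). For AC109891.1, limma's adjusted p ranged over 0.022 to 0.251 in the 14 alternative settings and missed 0.05 with median scaling (0.0891), with quantile normalization (0.251), without CL5 (0.0632), without CL6 (0.051), without CL7 (0.0604), without FL12 (0.0706) and without FL5 (0.0808). For AC108574.2, limma's adjusted p ranged over 0.0104 to 0.207 in the 14 alternative settings and missed 0.05 with median scaling (0.0809), with quantile normalization (0.207), without CL5 (0.0731), without CL6 (0.0848), without CL7 (0.0856), without FL12 (0.0851) and without FL5 (0.0989).

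The median spread between rats of a group was larger for these lncRNAs than for all genes tested. The median SD of log2(FPKM + 0.1) within groups was 0.357 for the 101, against 0.253 for all genes tested and 0.205 for genes at or above 1 FPKM. It was 0.284 for the 77 with at least 1 FPKM in both groups and 0.541 for lncRNAs of 0.1 to 1 FPKM. Single rats stood at least 2-fold away from both others of their group for 6, 3 and 4 of the 101 in the CL rats and for 6, 7 and 6 in the FL rats, counted on FPKM + 0.1. Among the 10160 protein-coding genes of at least 1 FPKM the share was 0.955%, 0.531% and 0.463% in the CL rats and 2.43%, 0.965% and 1.23% in the FL rats. Those genes had a higher median level than the 101 (5.26 against 2.09 FPKM), so spread was not compared at like levels. The largest SD within groups of the 101 were those of AABR07040908.1 (1.86), AABR07021492.1 (1.66) and AABR07069728.1 (1.53). AABR07040908.1 (ENSRNOG00000052691, chromosome X) measured 0.15, 4.74 and 6.44 FPKM in the CL rats and 0.23, 0.42 and 0.23 FPKM in the FL rats. CL6 and CL7 were high, whereas CL5 was below all FL rats, and the log2 difference of -2.38 (standard error 1.09, adjusted p = 0.161 from limma) did not pass. Without CL5, AABR07040908.1 passed with a log2 difference of -3.87 (adjusted p = 0.00466 from limma), whereas the difference shrank to -1.52 without CL7 and to -1.50 with a pseudocount of 1. AABR07021492.1 (ENSRNOG00000056431, chromosome 13) measured 0, 1.54 and 0 FPKM in the CL rats and 2.15, 1.91 and 2.92 FPKM in the FL rats. CL5 and CL7 were listed at 0 and CL6 was close to the FL rats, all of which were above it, and the log2 difference of 3.23 (standard error 0.98, adjusted p = 0.0554 from limma) did not pass. AABR07021492.1 passed without CL6 (adjusted p = 0.00454 from limma) and with a pseudocount of 1 (0.0438 from limma), and with values of 0 its size depends on the pseudocount, at 1.27 with 1 and 5.42 with 0.01. Adjusted p from limma over the 14 alternative settings was 0.00466 to 0.426 for AABR07040908.1 and 0.00454 to 0.18 for AABR07021492.1.

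Across the 101 lncRNAs, Pearson's r of log2(FPKM + 0.1) between pairs of rats was 0.834 to 0.876 within CL, 0.805 to 0.863 within FL and 0.479 to 0.714 between the groups. These are descriptions over 101 genes, which are not independent, and pairs share their libraries. Of the 101, 9 reached a mean of 1 FPKM in CL alone and 15 in FL alone. The rule that chose the lncRNAs can thus itself lower r between the groups, and r without them was not computed. Between any 2 rats, 0.990% to 2.87% of genes had the same value above 0.

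Sequence was at hand for 2 of the 4 lncRNAs with a LOC number and for 2 of the 101 in all, which matched RefSeq by symbol. Of the 18 that passed, LOC102549726 was the 1 matched, and its promoter is shown for that reason, beside that of LOC102547954, which did not pass. The windows run from 250 bases before to 50 bases after the start of the gene, 5′ to 3′ on the strand of the gene, in RefSeq's GRCr8 assembly of the rat, which is not the build of the table. The window of LOC102549726 is chr20:3880958-3881257 on the plus strand. That of LOC102547954 is chr10:68215060-68215359 on the minus strand. Capitals mark TATAAA, the core of the TATA box, which was searched on both strands.
LOC102549726: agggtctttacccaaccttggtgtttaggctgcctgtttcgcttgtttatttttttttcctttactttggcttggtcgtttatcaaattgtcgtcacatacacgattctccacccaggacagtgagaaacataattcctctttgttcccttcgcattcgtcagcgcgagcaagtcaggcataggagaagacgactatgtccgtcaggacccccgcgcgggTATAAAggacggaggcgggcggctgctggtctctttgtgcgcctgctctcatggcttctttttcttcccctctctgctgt
LOC102547954: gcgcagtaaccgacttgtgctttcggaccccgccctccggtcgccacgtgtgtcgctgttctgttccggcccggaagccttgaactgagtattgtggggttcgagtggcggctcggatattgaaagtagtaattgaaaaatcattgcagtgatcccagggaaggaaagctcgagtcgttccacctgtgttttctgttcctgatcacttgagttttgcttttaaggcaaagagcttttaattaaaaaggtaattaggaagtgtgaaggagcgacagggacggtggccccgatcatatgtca
TATAAA was found 1 time in LOC102549726, with its first base 30 bases before the start, on the strand of the gene, and 0 times in LOC102547954 on either strand. Of 33469 promoters of the same length, 8.80% held it on the strand of the gene and 14.2% on either strand. The window of LOC102549726 had 50.3% G and C and 17 CG pairs, and that of LOC102547954 had 50% and 18, against medians of 51.7% and 7. A match describes the letters and not a bound site.

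In RefSeq, Snord48 and Snord52, snoRNAs that guide the methylation of ribosomal RNA, lie within LOC102549726. Snord48 (chromosome 20) was listed at 0 in all 6 rats, and the Snord52 row of the table is on another chromosome and was not used. The protein-coding neighbours of LOC102549726 are Hspa1b, an inducible heat shock protein 70 gene, and Neu1, the lysosomal sialidase. Hspa1b measured 0.13, 0.28 and 0.11 FPKM in the CL rats and 0.14, 0.75 and 0.04 FPKM in the FL rats. Neu1 measured 6.50, 7.37 and 5.19 FPKM in the CL rats and 7.13, 7.31 and 8.49 FPKM in the FL rats. The groups overlapped for both neighbours, and neither passed limma's test (adjusted p = 0.840 for Hspa1b and 0.249 for Neu1). LOC102547954 (ENSRNOG00000051364, chromosome 10) measured 2.42, 2.02 and 1.57 FPKM in the CL rats and 1.80, 2.30 and 1.59 FPKM in the FL rats, with overlap. Its nearest protein-coding neighbour on the side of its start is Lig3, a DNA ligase gene on the opposite strand, which measured 9.69, 9.10 and 8.20 FPKM in the CL rats and 9.35, 10.7 and 12.7 FPKM in the FL rats. On its other side lies Zfp830, a zinc finger gene, with 2.47, 2.58 and 1.65 FPKM in the CL rats and 3.33, 3.27 and 2.37 FPKM in the FL rats. For both the groups overlapped and limma's test was not passed (adjusted p = 0.219 for Lig3 and 0.217 for Zfp830). LOC102547954 and its neighbours were chosen after values were seen. So was LOC100911851 (ENSRNOG00000061155, chromosome 11), which the table classes as a lincRNA but describes as intersectin-1-like, the name of a protein family. LOC100911851 measured 1.59, 2.14 and 1.99 FPKM in the CL rats and 2.57, 2.68 and 2.44 FPKM in the FL rats. Each FL rat was above each CL rat, and its log2 difference of 0.42 (standard error 0.17, adjusted p = 0.118 from limma) did not pass.

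Lists of genes tied to lncRNAs were read beside them. Of 56 lncRNAs with names such as Malat1, Neat1 and H19, 2 were matched by symbol, and the others were not analysed here. Fendrr, a lincRNA on chromosome 19, measured 0.27, 0.18 and 0.28 FPKM in the CL rats and 0.04, 0.69 and 0.53 FPKM in the FL rats, below the limit in every rat, and Snhg11, classed as protein-coding, was at or below 0.10 FPKM. Neither gene passed (Fendrr, adjusted p = 0.780 from limma, with Snhg11 too low to be tested). The 101 carry only AABR, AC or Rn60 names or LOC numbers, so a match by symbol could not find any of them. Whether a lncRNA of the list is among the 101 under such a name was not tested. Of genes that host snoRNAs, 12 of 29 were in the table and 11 tested, and 4 rose (36.4%, against 16.9% of all genes tested), each by less than 2-fold (Rpl13a, Ncl, Rpl4 and Rps2, which encode ribosomal proteins or, for Ncl, nucleolin), and 0 fell. Their median log2 difference was 0.47, against 0.29 over all genes tested, and 1 to 5 rose over the 14 alternative settings. The number was 2 without CL5 (8.65% of all genes tested), FL5 (6.04%) or limma's trend (13.8%), and 1 without CL6 (8.80%) or CL7 (6.08%), with median scaling (8.75%) and with quantile normalization (5.26%). Of 15 proteins of paraspeckles and nuclear speckles, bodies built with lncRNAs or near them, 14 were tested, 2 rose (Nono and Srsf5, by less than 2-fold; 14.3%, near the 16.9% of all genes tested) and 0 fell, with a median log2 difference of 0.22 and 0 to 4 rising over those settings (1 without CL6, 4 without FL2, where 21.5% of all genes tested rose, and 0 without any other rat, with either scaling or without trend). Of a list of X inactivation and Y-linked genes, 0 of the X inactivation genes were in the table. The Y-linked genes Ddx3y (in 2 rows, the other on chromosome 13), Uty, Eif2s3y and Kdm5d gave 5 rows tested, of which 0 passed limma's test (0 at an unadjusted p under 0.05). Ddx3y on chromosome Y measured 11.5, 12 and 12 FPKM in the CL rats and 12, 10.8 and 11.6 FPKM in the FL rats, and all 6 rats are described as male.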

How the data were processed

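FPKM values, with 2 decimals and a column for each rat, were deposited by the authors, whose methods name FASTX-Toolkit for trimming, TopHat2 for alignment and the use of unique reads. GRCh38 is the genome in the submitters' processing notes, but the gene identifiers belong to Ensembl's rat annotation, and neither its release nor the strand setting of the gene table is given in the sources used here. The authors' edgeR calls on counts were not used, nor were 2 further columns of values whose names match no sample. The labels gave each rat its group.

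FPKM are not counts, so limma was run on log2(FPKM + 0.1) for the 14864 genes whose mean reached 0.1 FPKM, with the prior variance as a trend of the mean. Benjamini-Hochberg adjustment covered all genes tested, and thresholds were an adjusted p of 0.05 and a 2-fold change. The lncRNAs, the marker lists (hepatocyte, stellate and myofibroblast, macrophage, cholangiocyte, endothelial, lymphocyte, cycling cells) and the lists of named lncRNAs, snoRNA hosts, speckle proteins and X or Y genes were chosen with earlier results of these data known. Named lncRNAs were the 10 with the highest mean, those passing the test, the 5 on each side of 1 FPKM and the 3 with the largest SD within groups, besides exceptions stated in the text. Alternatives changed the pseudocount (1 or 0.01), the filter (none, or a mean of 1 FPKM), the scaling (median or quantile), limma's prior (no trend, or robust), the fold limit, the rule for the level and, 1 at a time, the rats. The procedure was tested on simulated data. R 4.3.3, limma 3.58.1, Python 3.11.15, numpy 2.4.6, pandas 2.3.3 and matplotlib 3.10.9 were used.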

Additional observations from a re-analysis of the deposited data

How the results depend on the processing

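The number of lncRNAs that rose by 2-fold or more was 5 (1381 of all genes tested). It became 3 with no filter on low values (1206), 3 with median scaling (826), 1 with quantile normalization (456) and 4 with limma without trend (1313). It was 11 with no limit on the fold change (2518) and 1 among those with at least 1 FPKM in each group. Leaving out 1 rat at a time gave 2 to 6 (682 to 1833 of all genes tested). The number that fell was 6, and became 2 among those with at least 1 FPKM in each group; leaving out 1 rat at a time gave 2 to 5. The median log2 difference of these lncRNAs was 0.12, and was -0.093 after median scaling and -0.28 after quantile normalization; with 1 rat left out it was 0.076 to 0.20. Over all genes tested the median was 0.29, and was 0.19 with a pseudocount of 1, 0.079 after median scaling and -0.040 after quantile normalization; with 1 rat left out it was 0.26 to 0.34. Requiring 1 FPKM in every rat left 61 of the 101 lncRNAs, while leaving out 1 rat gave 99 to 105. The share of all FPKM averaged 0.179%, and was 0.255% outside the 10 highest genes of each rat and 0.114% without the highest lncRNA. For 28 named lncRNAs in 14 settings, 299 values kept their direction and side of the threshold, 76 no longer passed, 4 newly passed and 13 changed sign, none of the last being of a lncRNA that had passed. Log2 differences changed sign for AABR07004549.1 without FL5 (0.32, in a range of -0.57 to 0.32 over the omissions), AABR07019088.1 without CL7, FL2 and FL5 (0.063, 0.074 and 0.0046, in a range of -0.083 to 0.074), AABR07060341.2 without FL2 (0.098, in a range of -0.36 to 0.098) and AABR07004530.1 without CL5 and FL2 (0.43 and 0.35, in a range of -0.36 to 0.43). With median scaling or quantile normalization, respectively, they did so for AABR07017237.1 (-0.054 and -0.049), LOC102550026 (-0.034 and -0.083) and AABR07060341.3 (-0.012 and -0.063). An omission leaves fewer rats; beyond that, the cause was not tested. No paired analysis was made, since the methods divide separate animals into the groups and the number 5 in both marks no pair. Depth per rat is known only relative to the other rats, so no counting error is attached to a value.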
